A study of Mus musculus with 8 samples.

Results

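SAG-treated RAX-positive cells made from mouse embryonic stem cells were compared directly with dissected embryonic diencephalon and hypothalamus. The pair was chosen by its labels and takes 2 of the 8 microarrays of the study, 1 a side. The stem cells were K/l-EB5, a line of male sex and 129/Ola background in which GFP reports RAX. They were grown as floating aggregates and then as an adherent layer on poly-ornithine and laminin, in a defined medium with N2 and with B27 free of vitamin A. The Wnt inhibitor IWR-1-endo was given at 5 µM from day 3, and SAG, an agonist of the Hedgehog pathway, followed 12 h later at 100 nM. At day 10 the cells were detached with trypsin, and GFP-positive cells were collected on a sorter. The tissue was diencephalon with hypothalamus from 3 Sv129s6 embryos of both sexes at E12.5, neither cultured nor sorted. RNA from 3 sets of experiments was pooled before each hybridisation, so the spread between cultures or between embryos could not be measured. The other 6 arrays, used here to place the pair, held SAG RAX-negative cells, activin RAX-positive and RAX-negative cells of the same line and day, E14Tg2a cells given the Wnt inhibitor alone and taken on the same day (Wi control), and E12.5 cortex and eye. E14Tg2a is another male stem cell line of 129/Ola background, so Wi control differs from the SAG cells in line as well as in treatment.

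The hypothalamus arises at the floor of the forebrain, where Sonic hedgehog from the ventral midline induces Nkx2-1 and holds back dorsal programmes. Its tuberal part, around the stalk of the pituitary, keeps Rax-expressing progenitors, whereas the mammillary and paraventricular territories behind and above it use other transcription factors and give peptide-secreting neurons. In the Hedgehog pathway the ligand relieves Patched inhibition of Smoothened, and Gli transcription factors then act on targets that include Ptch1, Hhip and Gli1 themselves. SAG binds Smoothened and activates it without ligand.

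Each array gave a fluorescence intensity per probe, which was divided by the 75th percentile of the intensities on that array and put on a log2 scale. This value is called the log2 level below, and each difference is the level in SAG RAX-positive cells minus that in diencephalon/hypothalamus. A gene was called higher or lower when the difference was at least 1, a 2-fold change, and the brighter array was well above background. Both arrays lay on slide 1 and were read in scan 1, as did the other arrays except Wi control, which was on slide 2 and read in scan 2. Probes well above background made up 70.5% on the SAG RAX-positive array and 73.0% on the diencephalon/hypothalamus array, within the range of 59.5 to 79.3% over the 8 arrays. The slope of the spike-in controls was 0.888 on the SAG RAX-positive array and 0.900 on the diencephalon/hypothalamus array, both outside the range that the scanner software accepts. The 75th percentile of intensity was 679 on the SAG RAX-positive array and 1374 on the diencephalon/hypothalamus array. Of 34490 genes, 27256 were detected, which means that the brighter array of the pair was well above background. A total of 5273 of these were called higher, 19.3%, and 3608 were called lower, 13.2%, so that 32.6% were called in all. The median difference of all detected genes was 0.26. Higher genes made up 59.4% of calls, and 43.6% with the authors' deposited values, 50.0% after quantile normalisation and 69.2% after normexp background correction, which shifted the median of all detected genes by -0.20, -0.16 and 0.16. A list is therefore described by its counts and its median beside these figures. With 1 array a side no test was possible, and the measurement error of the scanner software's error model, with a median of 0.20 on the log2 scale, covers the array reading alone.

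The labels were checked on genes that should follow them. Rax, the gene behind the sorting gate, had a log2 level of 5.49 in SAG RAX-positive cells and 3.14 in diencephalon/hypothalamus. It is a check of the gate and no finding. Xist, the RNA that silences the second X chromosome in females, was not well above background in the male cells at -6.24, against -0.11 in the mixed-sex tissue. The Y-linked gene Eif2s3y was near the same level on both, with 2.45 in the cells and 2.13 in the tissue. In the tissue all 26 genes of the ventral and tuberal hypothalamus list and all 22 of the mammillary and paraventricular list were well above background. Of the 24 thalamus genes on the array 23 were. For the 2 hypothalamus lists the counts were 17 and 16 in cortex and 20 and 17 in eye. All 26 and all 22 were also above background in SAG RAX-negative cells, so this check cannot tell the tissue from a culture. Pitx1, Cga and Lhx3, genes of the pituitary and oral ectoderm, were also present in the tissue, at 2.69, 0.58 and 1.97. In bulk RNA fewer cells of a type and less RNA per cell cannot be told apart, and here a sorted population was set against a whole dissected region.

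**Figure D1:**
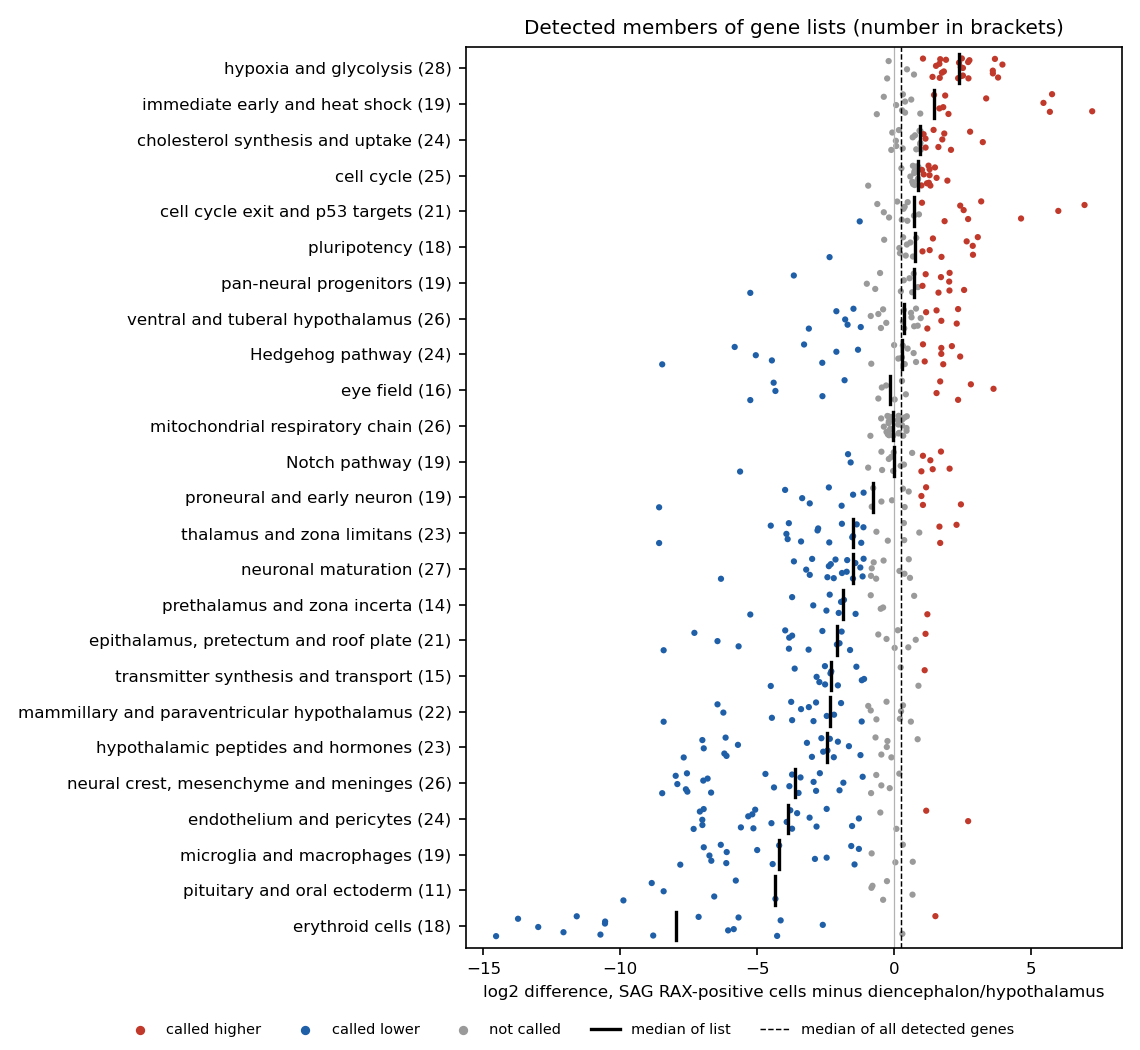
Log2 difference of each detected gene, SAG RAX-positive cells minus diencephalon/hypothalamus, in 25 gene lists, with the number of genes in brackets. Each point is a gene, coloured by its call, thick lines mark list medians, and the dashed line marks the median of all detected genes, 0.26. The hypoxia list lies to the right with a median of 2.36, and the lists for other cell types lie to the left, down to -7.97 for erythroid cells.

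Genes of the ventral and tuberal hypothalamus differed in both directions. Of 26 listed genes, 6 were called higher, 23.1%, and 6 lower, 23.1%, against 19.3% and 13.2% of all detected genes. The 6 higher genes include Rax, the gene of the sorting gate, which has the largest difference of the list and is no finding. The other 14 were not called, and the median difference was 0.37. Nkx2-1, which the ventral hypothalamus needs to form, had a log2 level of 4.82 in SAG RAX-positive cells and 3.09 in diencephalon/hypothalamus, 3.31-fold higher with a difference of 1.73 ± 0.20 (measurement error). Tbx3, a T-box repressor of the tuberal and infundibular region, was at 4.21 in the cells and 2.65 in the tissue, 2.94-fold higher. Both were higher in the SAG RAX-positive cells than on any of the other 7 arrays. Peg3, an imprinted zinc finger gene, was 4.89-fold higher, with 3.55 in the cells and 1.26 in the tissue. Fezf2, a forebrain zinc finger repressor, was 2.33-fold higher.

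A further group of tuberal genes was within 1 log2 unit on the pair. Nr5a1, the marker of the ventromedial nucleus, was at 1.23 in SAG RAX-positive cells and 0.90 in diencephalon/hypothalamus. Gsx1, needed for neurons that make growth hormone releasing hormone, was at 1.34 in the cells and 1.62 in the tissue. Hmx3, a homeobox gene of the ventral hypothalamus, was at 1.50 in the cells and 1.98 in the tissue. These 3 genes and Nkx2-4, at 1.14 in the cells and 0.50 in the tissue, were lower on each of the 3 arrays of cells that had no SAG and on cortex and eye, where the highest level was 0.96, for Gsx1 in activin RAX-positive cells. Six6 was at 1.19 in the cells and 1.76 in the tissue, and Isl1, a LIM homeobox gene of arcuate neurons, was at 2.26 in the cells and 2.66 in the tissue. Fgf10, a growth factor of infundibular progenitors and tanycytes, had 0.78 in the cells and -0.20 in the tissue and missed the call with a difference of 0.97. The genes called lower included Hmx2, at -0.97 in the cells and 0.25 in the tissue, and Nkx2-2, at -2.03 in the cells and 0.08 in the tissue, 4.30-fold lower, with a second probe at a difference of -4.16. Otp, the factor of neuroendocrine neurons of the paraventricular and arcuate nuclei, was not well above background in SAG RAX-positive cells and was at -2.86 in the tissue, at least 8.65-fold lower. After normexp correction its difference was -0.79 and it was not called.

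Folds written as "at least" here and below take, as the level of the dimmer side, the lowest level counted as well above background on that array or the gene's own level there, whichever is higher. For 8 of the 26 tuberal genes the SAG RAX-positive array was the highest of the 8, which held for 14.8% of all detected genes and for 35.9% of genes called higher. The 26 genes include Rax, by which the cells were sorted.

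**Figure D2:**
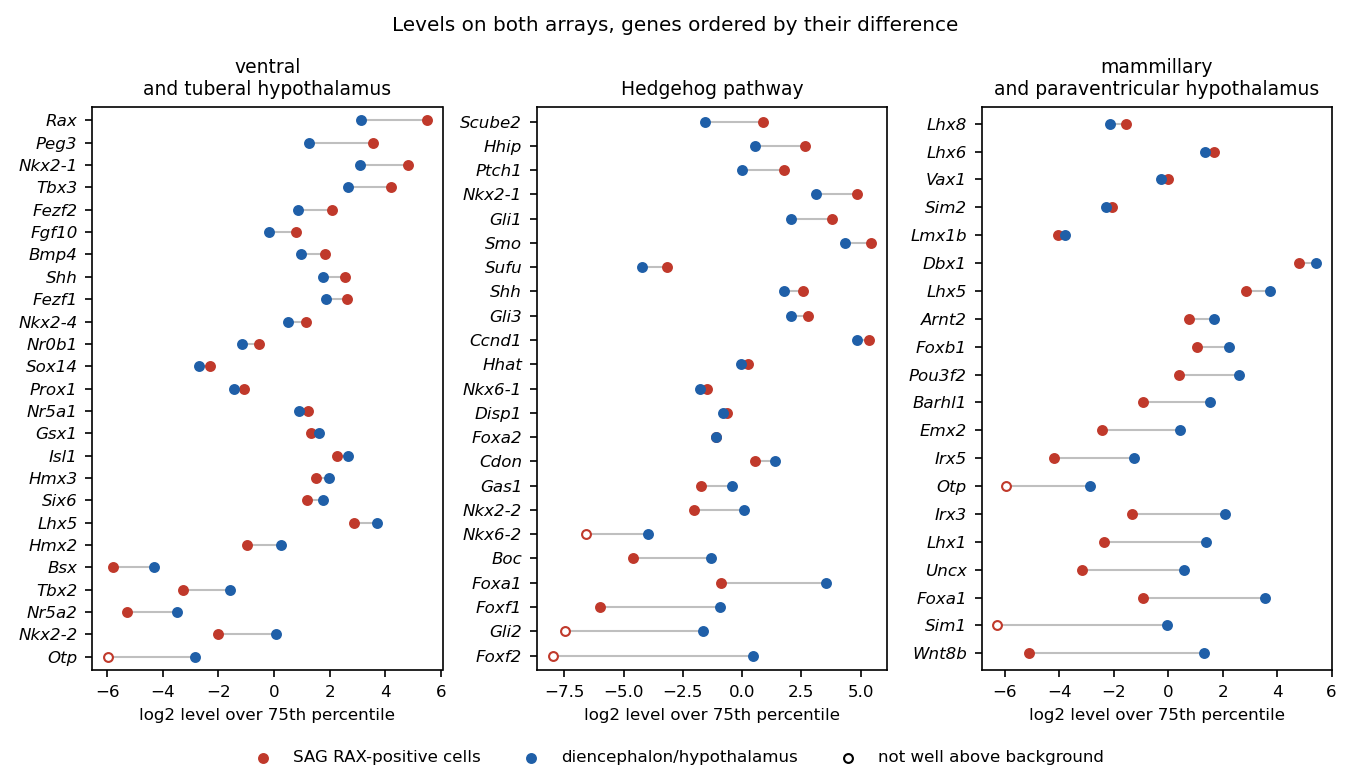
Log2 level over the array's 75th percentile in SAG RAX-positive cells (red) and diencephalon/hypothalamus (blue) for detected genes of 3 lists, ordered by the difference; open points were not well above background. Nkx2-1, Ptch1, Hhip and Gli1 sit to the right in the cells, and Wnt8b, Sim1 and Foxa1 sit to the right in the tissue.

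In the Hedgehog pathway the targets that report signalling were higher in SAG RAX-positive cells. Foxa1 and the mesenchymal genes Foxf1 and Foxf2 were lower. Of 24 genes, 7 were called higher and 8 lower, with a median difference of 0.31. Ptch1, the receptor induced by its own pathway, was at 1.77 in SAG RAX-positive cells and -0.03 in diencephalon/hypothalamus, 3.48-fold higher with a difference of 1.80 ± 0.20. Hhip, a secreted antagonist that is also a target, was at 2.65 in the cells and 0.54 in the tissue, 4.33-fold higher. Gli1, the activator whose transcription follows pathway activity, was at 3.79 in the cells and 2.07 in the tissue, 3.31-fold higher. All 3 were highest in the SAG RAX-positive cells among the 8 arrays. The SAG RAX-negative cells, from the same cultures, had 0.38 for Ptch1, 0.10 for Hhip and 2.40 for Gli1.

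The ligand and the machinery moved less. Shh itself was at 2.55 in SAG RAX-positive cells and 1.75 in diencephalon/hypothalamus, a difference of 0.80 that was not called. Scube2, which helps release the ligand from producing cells, was 5.34-fold higher, with 0.86 in the cells and -1.56 in the tissue and a second probe at a difference of 1.23. Smo, the target of SAG, was at 5.45 in the cells and 4.33 in the tissue, and Sufu, the inhibitor of Gli proteins, at -3.19 in the cells and -4.25 in the tissue, 2.18-fold and 2.08-fold higher, and both differences were under 1 in the authors' deposited values, at 0.80 and 0.79. Gli3, mainly a repressor, was not called, with a difference of 0.72. Gli2, the main activator at the start of a response, was not well above background in the SAG RAX-positive cells, against -1.64 in the tissue, at least 21.8-fold lower. Its single probe was likewise not above background in SAG RAX-negative cells at -6.26, while the 3 cultures without SAG had -0.78 to -0.04. Among the co-receptors Boc was 9.76-fold lower, at -4.62 in the cells and -1.33 in the tissue, and Cdon was not called at 0.55 and 1.38. The 3 probes of Gas1 disagreed, with differences from -1.32 to 1.3.

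Midline genes did not share a direction. Foxa1, expressed in the floor plate, was at -0.91 in SAG RAX-positive cells and 3.55 in diencephalon/hypothalamus, 22.0-fold lower, whereas SAG RAX-negative cells had 3.80. Foxa2, a floor plate factor that acts with it, was at -1.12 in both SAG RAX-positive cells and diencephalon/hypothalamus, and at 3.24 in SAG RAX-negative cells. Nkx6-1, a ventral progenitor gene of the hindbrain and cord, was not called, at -1.47 in the cells and -1.76 in the tissue. Foxf1 and Foxf2, Hedgehog targets in mesenchyme rather than in neural tissue, were 33.1-fold and at least 94.1-fold lower in the cells, with a second Foxf1 probe at a difference of -1.12, and they are counted again below among mesenchymal markers.

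The mammillary and paraventricular territory was the part of the hypothalamus with the lower levels in the cells. None of its 22 genes was called higher, 14 were called lower, and the median difference was -2.32. Sim1, which the paraventricular and supraoptic nuclei need, was not well above background in SAG RAX-positive cells, against -0.03 in diencephalon/hypothalamus, at least 66.3-fold lower. Wnt8b, a ligand of the mammillary region and of the dorsal midline, was at -5.13 in the cells and 1.32 in the tissue, 87.4-fold lower. Irx3, Lhx1 and Uncx were 10.5-fold, 13.2-fold and 13.5-fold lower, with a second Lhx1 probe at a difference of -2.32. Foxb1, the classical mammillary gene, and Dbx1 were closer. Foxb1 was at 1.06 in the cells and 2.24 in the tissue, and Dbx1 at 4.79 in the cells and 5.43 in the tissue. Pou3f2, which works with Sim1 in paraventricular neurons, was 4.57-fold lower. The 2 SAG populations, which are set against the same tissue array, differed in this list: SAG RAX-negative cells had 1 gene called higher and 6 lower of 22, with a median of -0.31. For Sim1 they had -0.58, close to the tissue.

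Peptides and hormones of hypothalamic neurons were lower in SAG RAX-positive cells or were not called. Of 23 detected genes 17 were called lower and none higher, with a median of -2.43. Vip and Avp were not counted as detected, because the array with the higher level was not well above background for them. Sst, the somatostatin gene, was at -3.91 in SAG RAX-positive cells and 2.29 in diencephalon/hypothalamus, 73.4-fold lower. Pmch, which encodes melanin-concentrating hormone, was at -5.67 in the cells and 1.33 in the tissue, 128-fold lower. Trh, thyrotropin-releasing hormone, was 124-fold lower, and Tac1, the substance P precursor, was at least 160-fold lower. Cartpt, Adcyap1 and Penk were lower by 71.2-fold, 69.5-fold and 52.1-fold.

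Among the peptides of the arcuate nucleus, Pomc was at -0.23 in SAG RAX-positive cells and 2.77 in diencephalon/hypothalamus, 8.0-fold lower. Npy was 5.08-fold lower, though with a difference of -0.72 after normexp correction, and Ghrh 4.59-fold lower, while Agrp was not called, at -3.24 in the cells and -2.57 in the tissue. Gal, the galanin precursor, was not called either, at -0.41 and -0.17. Th, the tyrosine hydroxylase of dopamine neurons, was at -0.27 in the cells and 1.78 in the tissue, 4.14-fold lower, and stood at 2.42 in SAG RAX-negative cells. Against the same tissue array those RAX-negative cells had 3 genes called higher and 12 lower of 23, with a median of -1.0.

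Genes of the diencephalon outside the hypothalamus were mostly lower in the cells. In the thalamus and zona limitans list 3 genes were called higher and 15 lower of 23, with a median of -1.50. Neurog2, a proneural factor of glutamatergic neurons, was at -5.63 in SAG RAX-positive cells and 2.96 in diencephalon/hypothalamus, 383-fold lower. Slc17a6, the vesicular glutamate transporter of thalamic neurons, was 22.7-fold lower, and Gata2, Irx1 and Tal1 were 15.3-fold, 14.8-fold and 14.4-fold lower. Tcf7l2, a Wnt pathway factor of the thalamus, was at -0.40 in the cells and -2.06 in the tissue, 3.16-fold higher over its 3 probes, and Lhx2 was 3.22-fold higher. Rora was called higher by its brighter probe, and its other probe gave a difference of -0.2.

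In the prethalamus list 1 gene was called higher and 9 lower of 14, with a median of -1.88, and Dlx1, a homeobox gene of inhibitory neurons, was at 0.41 in SAG RAX-positive cells and 2.88 in diencephalon/hypothalamus, 5.54-fold lower, with a second probe at -0.3. Its partner Dlx2 was not called, at 2.94 in the cells and 3.43 in the tissue. In the list for epithalamus, pretectum and roof plate 1 gene was called higher and 14 lower of 21, with a median of -2.09. Lmx1a, a roof plate and subthalamic factor, was at -4.22 in the cells and 3.08 in the tissue, 157-fold lower. Wnt8b, Neurog2, Pax6 and some other genes belong to more than 1 of these lists, so the counts overlap. The SAG RAX-positive array was the lowest of the 8 for 8 genes of this last list and for 10.3% of all detected genes, or 32.6% of genes called lower.

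**Figure D3:**
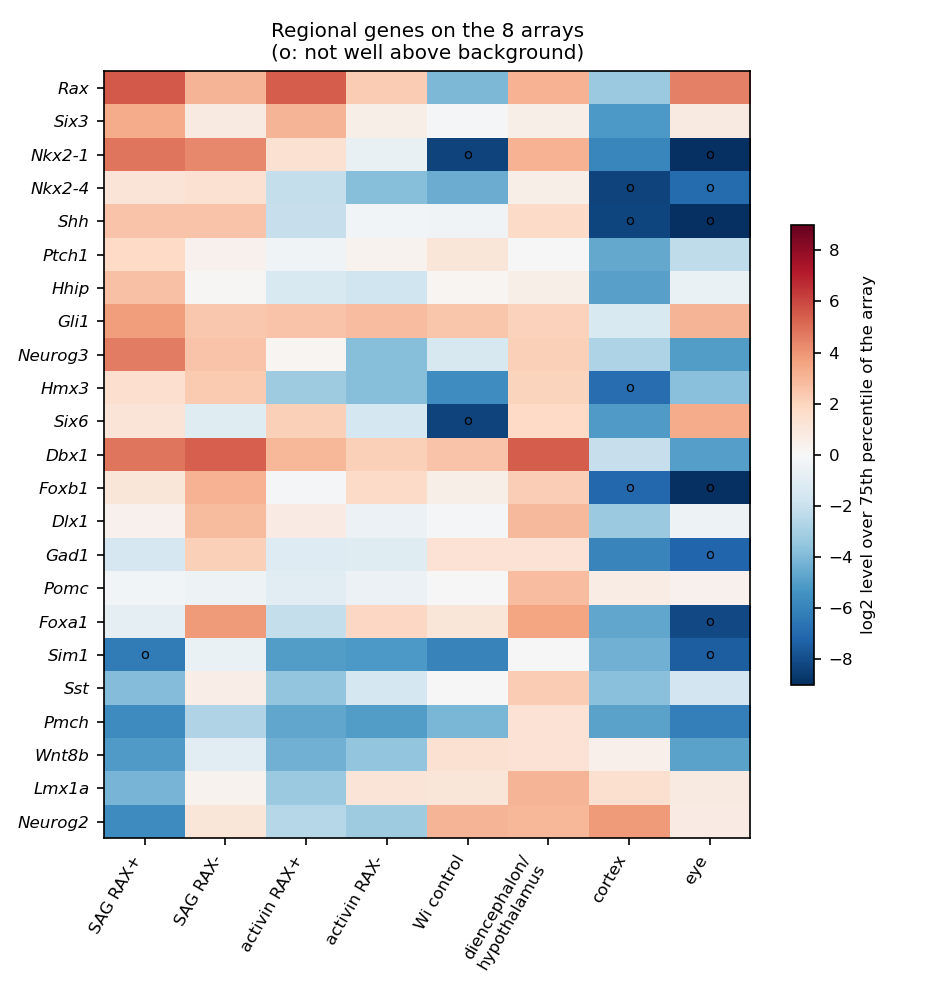
Log2 level over the array's 75th percentile of regional genes on the 8 arrays, cultures at the left and tissues at the right; o marks a level not well above background. The first column, SAG RAX-positive cells, has the highest values for Nkx2-1, Ptch1, Hhip and Gli1, and low values for Lmx1a and Neurog2, which are at 3.08 and 2.96 in diencephalon/hypothalamus.

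Genes whose profile over the 8 arrays was most like those of Nkx2-1, Rax and Sim1 were read off as a description, by Pearson r over 8 arrays. For Nkx2-1 they were Sfta3-ps with r = 0.99, Gpr50 with r = 0.98 and Edar with r = 0.97, and for Rax they were Rxfp2 with r = 0.98, Me3 with r = 0.98 and the antisense transcript Six3os1 with r = 0.98. For Sim1 they included Arxes2 with r = 0.96 and Gripap1 with r = 0.95.

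Over 31033 genes well above background somewhere, the SAG RAX-positive array correlated at r = 0.94 with diencephalon/hypothalamus, 0.94 with cortex and 0.93 with eye, which are descriptions across genes of single arrays. Their median absolute log2 differences were 0.70, 0.76 and 0.63, so the order of the tissues depended on the measure. Over 148 genes of the region lists (eye, forebrain, and midbrain to spinal cord) the correlation was 0.77 with diencephalon/hypothalamus, 0.41 with cortex and 0.41 with eye. The median absolute differences were 1.48, 2.33 and 2.07. SAG RAX-negative cells were closer to diencephalon/hypothalamus, with r = 0.86 and a difference of 0.86. Activin RAX-positive cells had r = 0.73 with diencephalon/hypothalamus and 0.56 with eye, and activin RAX-negative cells 0.72 and 0.56. Wi control had 0.59 with diencephalon/hypothalamus and 0.79 with cortex.

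Eye field genes were split. Of 16 genes 5 were called higher and 5 lower, with a median of -0.13. Six3, a repressor of Wnt signalling in the anterior forebrain, was at 3.34 in SAG RAX-positive cells and 0.54 in diencephalon/hypothalamus, 7.0-fold higher, and Fzd5, a Wnt receptor of the eye field and ventral hypothalamus, was 12.4-fold higher at 0.99 in the cells and -2.64 in the tissue. Six3 and Fzd5 were higher here than on any other array, and Rax was within error of its 5.45 in activin RAX-positive cells. Pax6, required for eye, thalamus and cortex, was not well above background in the cells, against -0.43 in the tissue, at least 38.1-fold lower by the chosen probe. Its other probe gave a difference of -2.40, and after normexp correction the difference was -2.82. Hesx1 was 20.2-fold lower, at -5.64 in the cells and -1.30 in the tissue, whereas both activin populations had 2.57 and 3.00. Otx2, the general anterior head factor, was the same on both arrays, at 3.53 in the cells and 3.51 in the tissue.

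Genes of other brain regions gave smaller counts. In the dorsal telencephalon list 4 were called higher and 7 lower of 19, 21.1% and 36.8%, against 19.3% and 13.2% of all detected genes. In the ventral telencephalon list 3 were called higher and 7 lower of 17, with Six3 and Nkx2-1 among the 3. In the midbrain, hindbrain and spinal cord list 4 were called higher and 6 lower of 16, most of them near background, and 8 were not detected. Olig2, a factor of ventral progenitors and of oligodendrocyte precursors, was at -3.55 in SAG RAX-positive cells and 1.35 in diencephalon/hypothalamus, 29.9-fold lower, and Olig1 was 37.6-fold lower.

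Neural progenitor genes were called in both directions, more often higher. In the pan-neural progenitor list 8 of 19 genes were called higher, 2 lower and 9 not, with a median of 0.72, and after quantile normalisation 6 were higher and 3 lower, with a median of 0.47. Sox3, a SoxB1 factor of neural stem cells, was at 6.15 in SAG RAX-positive cells and 3.59 in diencephalon/hypothalamus, 5.90-fold higher and the highest of the 8 arrays. Sox21 and the RNA-binding protein gene Msi1 were 4.04-fold and 4.07-fold higher, with a second Msi1 probe at a difference of 0.5. Fabp7, the radial glia fatty acid binding protein, went the other way, at 2.18 in the cells and 5.84 in the tissue, 12.7-fold lower. Hes5 and Vim, both of radial glia, were not called, with differences of 0.66 and 0.25. Notch1 was 4.09-fold higher by its chosen probe and its other probe gave a difference of 0.6, and the Notch target Hes1 was 3.28-fold higher. In the Notch list 6 were called higher and 3 lower of 19, with a median of -0.01.

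In the neuronal maturation list 18 of 27 genes were called lower and none higher, with a median of -1.50. Dcx, a microtubule protein of migrating young neurons, was at 1.24 in SAG RAX-positive cells and 4.32 in diencephalon/hypothalamus, 8.45-fold lower. Mapt, the axonal tau protein, was 9.24-fold lower and Myt1l, a factor that holds neuronal identity, was 12.6-fold lower, with 4 probes from -3.66 to -2.03. Tubb3 and Ncam1 were not called, with differences of -0.81 and -0.74. SAG RAX-negative cells had 2 of 27 called lower and none higher against the same tissue array, with a median of -0.10, and Dcx stood at 3.66 there.

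Among the genes that start neurogenesis 4 of 19 were called higher, 21.1%, and 8 lower, 42.1%, against 19.3% and 13.2% of all detected genes. After quantile normalisation 2 were higher and 9 lower. Neurog3, a proneural factor of the tuberal hypothalamus, was at 4.61 in SAG RAX-positive cells and 2.17 in diencephalon/hypothalamus, 5.44-fold higher, and the next level was 2.54, in SAG RAX-negative cells. The Notch ligands Dll1 and Dll3 were 2.08-fold and 2.00-fold higher, and both were under the call after quantile normalisation, with differences of 0.93 and 0.83. Transmitter genes followed the neuronal list, with 1 called higher and 12 lower of 15, a median of -2.29, and Gad1, the GABA-synthesising enzyme, at -1.53 in the cells and 1.30 in the tissue. In the cell cycle list 12 of 25 genes were called higher and none lower, with a median of 0.89. After quantile normalisation 7 were higher and 1 lower, with a median of 0.80. In the authors' deposited values 6 were higher and none lower, with a median of 0.77. Cdt1, which licenses replication origins, was at 5.23 in the cells and 3.28 in the tissue, 3.86-fold higher, and Rrm2, a subunit of ribonucleotide reductase, was 2.94-fold higher. Pcna and Birc5 were not called, with differences of 0.75 and 0.70.

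Other signalling lists held more lower than higher genes, or were balanced. In the Wnt list 5 genes were called higher and 11 lower of 24, with a median of -0.82. The antagonist genes Dkk3 and Dkk2 were 27.3-fold and at least 46.4-fold lower, while the antagonist Frzb was 4.45-fold higher, with 1.09 in SAG RAX-positive cells and -1.06 in diencephalon/hypothalamus. In the BMP list 1 was called higher and 8 lower of 22, with Msx1, a target, 15.7-fold lower at -3.63 in the cells and 0.35 in the tissue, and Id2 not called at a difference of -0.05. In the retinoic acid list 1 was called higher and 10 lower of 17, with a median of -1.22. Aldh1a2, an enzyme that makes retinoic acid, was 14.2-fold lower, and Dhrs3, a reductase induced by it, was 22.5-fold lower at -4.19 in the cells and 0.30 in the tissue. In the FGF list 4 were called higher and 4 lower of 20, 20% each, against 19.3% and 13.2% of all detected genes. Fgf9 was 3.87-fold higher and Fgf15, a growth factor gene of the eye field and diencephalon, was 6.13-fold lower. Among the targets of Nodal and activin 3 were called higher and 7 lower of 16, and Lefty2 was 2.11-fold higher, or 0.98 on the log2 scale after normexp correction, at -1.84 in the cells and -2.92 in the tissue, against 0.45 in activin RAX-positive cells.

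Hypoxia and glycolysis genes were mostly higher in the cells. Of 28 genes 24 were called higher and none lower, with a median difference of 2.36, and the median was between 1.77 and 2.45 under each other scaling and background correction. Pdk1, the kinase that keeps pyruvate out of mitochondria, was at 2.99 in SAG RAX-positive cells and -0.97 in diencephalon/hypothalamus, 15.6-fold higher. Bnip3, a mitochondrial autophagy receptor, was at 6.33 in the cells and 2.72 in the tissue, 12.2-fold higher over 3 probes with differences of 3.6 to 4.2. The glucose transporter gene Slc2a3 was 13.9-fold higher and the aldolase gene Aldoc 12.9-fold higher. Slc16a3, a lactate exporter, was at 5.73 in the cells and 0.44 in the tissue, 39.0-fold higher. Hk1, Pfkfb4 and Ndrg1 were not called, with differences of 0.73, -0.20 and 0.47. The direction was shared by the cultures: for 22 of the 28 genes all 5 culture arrays were above all 3 tissue arrays, which was so for 9.21% of all detected genes and 25.8% of genes called higher. Genes of the mitochondrial respiratory chain were not called, 0 of 26, with a median of -0.05.

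Promoters are shown for 4 of these genes because the list moved together. They are the 250 bases before the transcription start in the RefSeq table for GRCm38.p6, and the capitals mark ACGTG, the core bound by hypoxia-inducible factors, or its reverse complement CACGT. Bnip3 lies at chr7:138909507-138909756 on the minus strand, Hk2 at chr6:82774455-82774704 on the minus strand, Ldha at chr7:46845554-46845803 on the plus strand and Pgk1 at chrX:106186850-106187099 on the plus strand. Hk2, hexokinase 2, and Ldha, lactate dehydrogenase A, were chosen after their values were seen. For each gene the window with the most matches is shown, and Ldha had 2 windows, 1 of them with a match. All 4 genes shown hold the motif, whereas 10 of the 26 list genes in the table hold none.
Bnip3: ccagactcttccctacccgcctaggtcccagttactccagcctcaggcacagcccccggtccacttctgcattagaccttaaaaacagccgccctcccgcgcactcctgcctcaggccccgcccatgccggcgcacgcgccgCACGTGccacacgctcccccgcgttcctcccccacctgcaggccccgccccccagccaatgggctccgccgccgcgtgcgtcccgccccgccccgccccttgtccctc
Hk2: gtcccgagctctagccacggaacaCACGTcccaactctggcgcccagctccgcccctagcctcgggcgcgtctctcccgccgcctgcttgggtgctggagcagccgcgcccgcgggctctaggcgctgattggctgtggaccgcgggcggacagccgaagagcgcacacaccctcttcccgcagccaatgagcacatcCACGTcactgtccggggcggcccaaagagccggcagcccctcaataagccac
Ldha: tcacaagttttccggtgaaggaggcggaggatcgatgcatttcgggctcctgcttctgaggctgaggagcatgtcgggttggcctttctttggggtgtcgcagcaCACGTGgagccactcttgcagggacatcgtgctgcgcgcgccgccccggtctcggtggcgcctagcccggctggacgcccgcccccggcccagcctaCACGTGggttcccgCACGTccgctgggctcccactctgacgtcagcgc
Pgk1: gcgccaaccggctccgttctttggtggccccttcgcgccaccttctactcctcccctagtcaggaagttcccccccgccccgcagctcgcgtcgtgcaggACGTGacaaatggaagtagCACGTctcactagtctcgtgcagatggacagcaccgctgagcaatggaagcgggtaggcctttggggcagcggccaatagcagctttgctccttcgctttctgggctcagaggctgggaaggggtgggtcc
CACGTG holds both forms and was counted as 2 matches, which gives 2 in Bnip3, 2 in Hk2, 5 in Ldha and 2 in Pgk1. Pgk1, phosphoglycerate kinase, was at 7.49 in SAG RAX-positive cells and 5.11 in diencephalon/hypothalamus, 5.19-fold higher, and Hk2 and Ldha were 12.2-fold and 3.37-fold higher, with a log2 difference for Ldha of 1.75 that was 1.02 after quantile normalisation and up to 2.97 by its other probes. Of the 28 list genes 26 were in the table, and 16 of them, 61.5%, held the motif on either strand in at least 1 window, against 18.5% of all 27025 genes. Among genes with a single window the shares were 11 of 17, 64.7%, and 16.3%. The list was drawn up from hypoxia and glycolysis genes, so this contrast goes with the choice of list and is no result of these arrays. Of the list genes called higher 15 of 23 held the motif, and of those not called 1 of 3, too few to compare. The promoters of Pdk1 and Aldoc held no match in this window. A match is a description of letters, and binding was not measured.

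**Figure D4:**
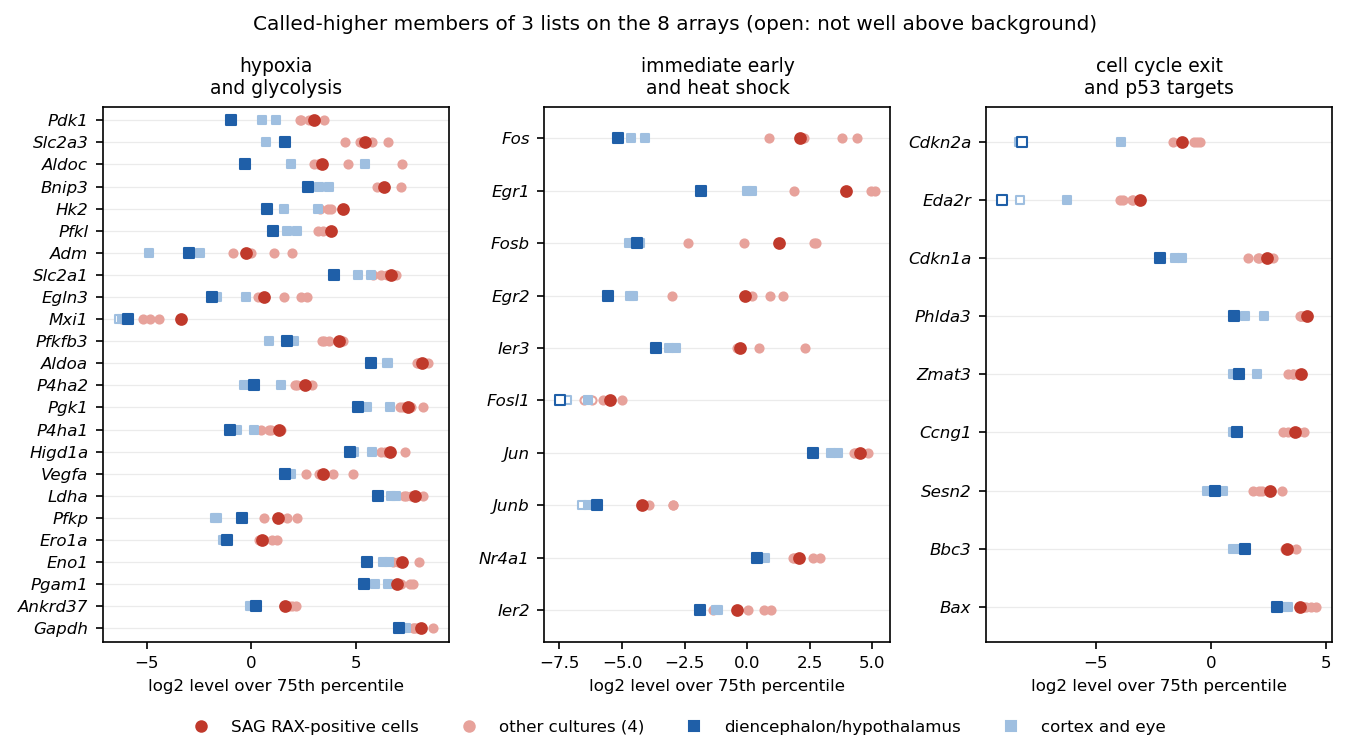
Log2 level over the array's 75th percentile on the 8 arrays for the genes called higher in 3 lists, with SAG RAX-positive cells and the other cultures as circles, diencephalon/hypothalamus and the other tissues as squares, and open points not well above background. Fos is at 2.09 in SAG RAX-positive cells and -5.15 in diencephalon/hypothalamus, and the cultures lie to the right of the tissues for most of the genes shown.

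Immediate early genes, which are transcribed within minutes of a stimulus or of handling, included the largest called-higher difference among the genes named by rule. Of 19 genes in the immediate early and heat shock list 10 were called higher and none lower, with a median of 1.46. Fos was at 2.09 in SAG RAX-positive cells and -5.15 in diencephalon/hypothalamus, 151-fold higher. Egr1, Fosb and Egr2 were 54.7-fold, 51.8-fold and 44.0-fold higher. The chaperone genes Hspa8, Hsp90aa1 and Dnajb1 were not called, with differences of 0.32, 0.40 and 0.29. Fos was between 0.87 and 4.38 on the 5 culture arrays and between -5.15 and -4.10 on the 3 tissue arrays. The cultures were treated with trypsin and the SAG and activin populations were sorted, while the tissues were not, and these steps cannot be told apart from growth in culture.

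Genes of cell cycle exit and p53 targets were higher in 9 of 21 cases and lower in 1, with a median of 0.73. Cdkn1a, the p21 inhibitor and a p53 target, was at 2.44 in SAG RAX-positive cells and -2.20 in diencephalon/hypothalamus, 25.0-fold higher over 3 probes. Cdkn2a, the locus of p16 and ARF, was at -1.26 in the cells and not well above background in the tissue, at least 55.7-fold higher, with a second probe at a difference of 3.57. Phlda3 and Eda2r, both p53 targets, were 9.10-fold and at least 15.7-fold higher, and Mdm2, also a target, was not called at a difference of 0.49. For 13 of the 21 genes all cultures were above all tissues.

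Cholesterol genes were called higher in 10 of 24 cases and lower in none, with a median of 0.97. Insig1, which holds back sterol synthesis when sterols are plentiful, was at 0.96 in SAG RAX-positive cells and -1.12 in diencephalon/hypothalamus, 4.23-fold higher, and the regulator Srebf2 was 3.57-fold higher. In the amino acid and endoplasmic reticulum stress list 4 of 23 were called higher and none lower, among them Ddit4, an mTORC1 inhibitor induced by hypoxia and p53, which was 21.5-fold higher at 7.17 in the cells and 2.74 in the tissue. Its median of 0.22 was on the other side of 0 after quantile normalisation, at -0.09. Ribosomal protein genes had 1 of 26 called higher and a median of 0.73, which was -0.01 after quantile normalisation and -0.11 in the authors' deposited values.

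Genes of pluripotency were mostly higher or not called, and imprinted genes moved in both directions. In the pluripotency list 8 of 18 were called higher and 1 lower, with a median of 0.75. After quantile normalisation 5 were higher, with a median of 0.76, and in the authors' deposited values 4, with a median of 0.44. Lin28a, an RNA-binding protein of stem cells and early progenitors, was at 1.07 in SAG RAX-positive cells and -1.99 in diencephalon/hypothalamus, 8.34-fold higher, and Sall4 was 7.34-fold higher, with 3 probes from 0.78 to 2.88. Pou5f1, which defines pluripotent cells, was at -5.05 in the cells and not well above background in the tissue, at least 4.04-fold higher with a difference of 0.45 in the authors' deposited values, against 3.86 in activin RAX-negative cells. Among imprinted genes 7 were called higher and 4 lower of 22. H19 was at 0.48 in the cells and 5.62 in the tissue, 35.4-fold lower, Igf2 was 8.66-fold lower and Grb10 17.6-fold lower. The paternally expressed Peg10 was 5.58-fold higher and Magel2, of the Prader-Willi region, was 3.02-fold higher at 6.36 in the cells and 4.76 in the tissue. In the interferon list 5 were called higher and 3 lower of 16, with the peptide transporter Tap1 11.3-fold higher. In the housekeeping list 4 of 15 were called higher and 1 lower, with a median of 0.80, or 0.14 after quantile normalisation and 0.02 in the authors' deposited values. The gene called lower was Hprt, the purine salvage gene often used as a control, which was at -1.36 in the cells and 2.12 in the tissue, 11.1-fold lower, with -1.54 to -1.07 on the 5 culture arrays and 2.12 to 3.62 on the tissues.

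Markers of blood, vessels, immune cells, mesenchyme and pituitary were low in the sorted cells. Of 18 erythroid genes 16 were called lower and 1 higher, with a median of -7.97, and 7 were well above background in SAG RAX-positive cells against 18 in diencephalon/hypothalamus. Hba-a1, an adult alpha globin gene, was at least 12996-fold lower, at 7.58 in the tissue, and its probe can also read its near-identical copy. Tfrc, the transferrin receptor used by all dividing cells, was the gene called higher, at 2.78 in the cells and 1.27 in the tissue. Of 24 genes of endothelium and pericytes 20 were called lower and 2 higher, with a median of -3.86. Cldn5, the tight junction gene of brain vessels, was at -5.02 in SAG RAX-positive cells and 1.99 in diencephalon/hypothalamus, 128-fold lower. Slc2a1, a glucose transporter of vessels and of hypoxic cells, was 6.54-fold higher.

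Of 19 microglia and macrophage genes 15 were called lower and none higher, with a median of -4.20, and 8 were well above background in SAG RAX-positive cells against 19 in diencephalon/hypothalamus. The complement genes C1qa and C1qc and the receptor gene Trem2 were not well above background in the cells. Of 26 genes of neural crest, mesenchyme and meninges 21 were called lower and none higher, with a median of -3.61. Col3a1, a fibrillar collagen gene, was at -3.88 in the cells and 4.04 in the tissue, 242-fold lower, and Col1a1 was 195-fold lower. The SAG RAX-positive array was the lowest of the 8 for 18 of these 26 genes. Of 11 genes of pituitary and oral ectoderm 6 were called lower and none higher. Pitx1 was at -7.19 in the cells, not well above background, and 2.69 in the tissue, at least 438-fold lower. Cultures were below tissues on all arrays for 16 of the erythroid genes, 14 of the microglial genes and 16 of the endothelial genes, against 4.78% of all detected genes and 23.0% of genes called lower. These markers moved with the lower peptides, neuronal genes and regional genes above, and their part in those results was not tested.

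**Figure D5:**
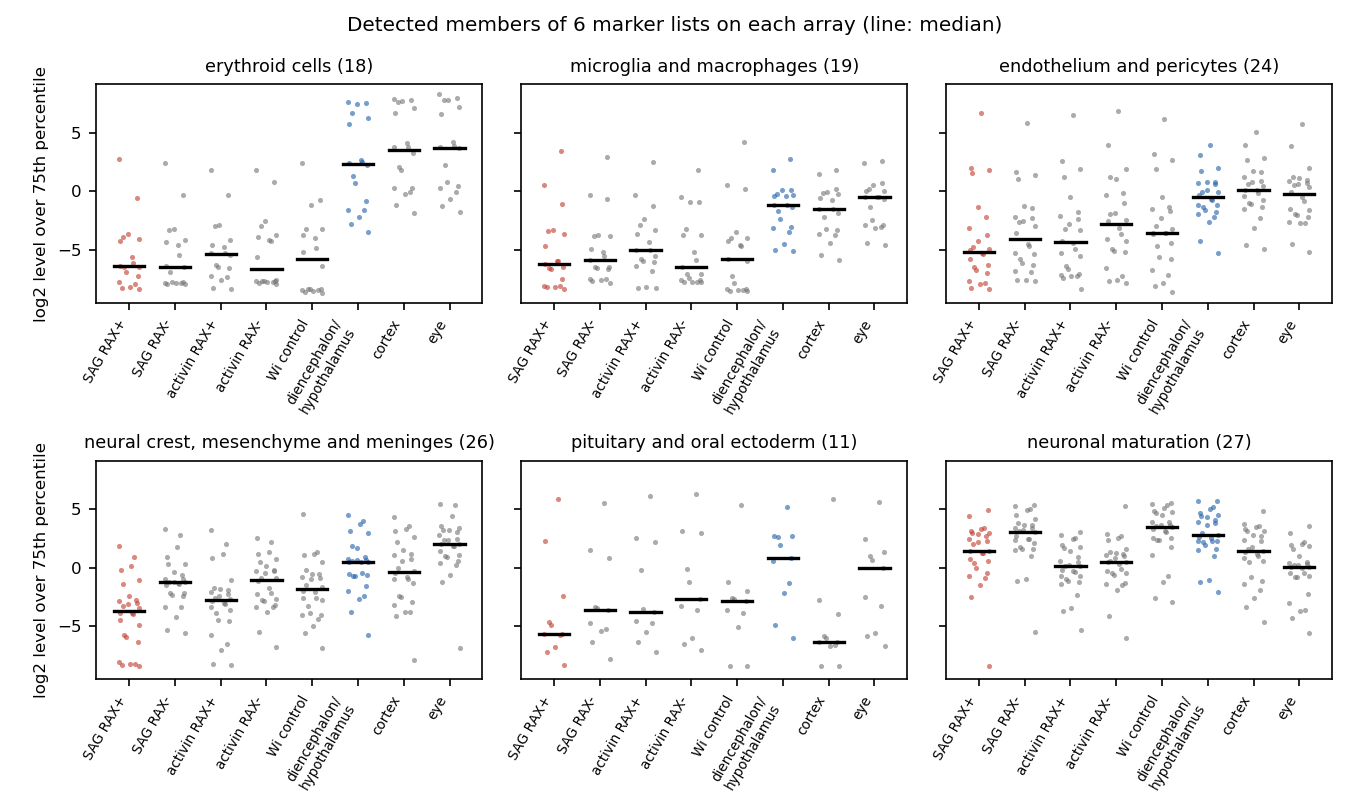
Log2 level over the array's 75th percentile of the detected genes of 6 lists on each array, with SAG RAX-positive cells in red, diencephalon/hypothalamus in blue and the other arrays in grey; lines mark medians. Median erythroid level is -6.38 in SAG RAX-positive cells and 2.30 in diencephalon/hypothalamus, and the neuronal list has 1.47 and 2.81, with 3.08 in SAG RAX-negative cells.

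Among the genes with the largest differences that no list names was Mid1, an X-linked ubiquitin ligase gene. Mid1 was at 4.79 in SAG RAX-positive cells and -1.86 in diencephalon/hypothalamus, 101-fold higher by the chosen probe. Its 4 probes gave differences from 1.24 to 6.73, with a mean of 5.09. Mid1 stood between 2.29 and 3.84 on the other 4 culture arrays and between -2.12 and -1.28 on the other 2 tissue arrays. Trim71, a target of let-7 microRNA that keeps progenitors immature, was at 3.58 in the cells and -1.65 in the tissue, 37.7-fold higher. Dnah10, an axonemal dynein gene, was at 0.66 in the cells and -5.77 in the tissue, 86.0-fold higher, with -5.73 in Wi control. Its 3 probes gave differences from 3.02 to 6.43, with a mean of 4.23. Cox6a2, a cytochrome oxidase subunit of muscle, was at 0.70 in the cells and -4.98 in the tissue, 51.1-fold higher, and was lower on each of the other 6 arrays. On the X chromosome Rhox6, Rhox9, Pnma5 and Esx1, genes of placenta and germline, were not well above background in the tissue and were at least 14.8-fold, 27.7-fold, 13.6-fold and 12.5-fold higher. At the low end, outside the lists, were Pdzk1ip1, Pf4, Rhd and Cd34. Cd34, a surface protein of vessels and blood progenitors, was at -5.49 in the cells and 3.29 in the tissue, 439-fold lower by the chosen probe, and its other probe gave a difference of -4.09. Pf4, a platelet chemokine, was at least 182-fold lower. Wnt10a, a ligand of surface ectoderm, was at least 76.9-fold lower.

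The same size rule was applied to 2 other culture and tissue pairs, which share no array with this pair. Wi control differs from the SAG and activin cells in line, slide and scan as well, and these cannot be told apart in its pair. Activin RAX-positive cells over eye gave 22.6% of genes higher and 11.0% lower, and Wi control over cortex gave 27.1% higher and 18.2% lower. Of the genes called higher in SAG RAX-positive cells over diencephalon/hypothalamus 2543 were also higher in activin RAX-positive cells over eye, 48.2% of the SAG list and 37.8% of the activin list. For genes called lower the overlap was 1786, 49.5% of the SAG list and 54.7% of the activin list. With Wi control over cortex it was 1851 higher, 35.1% and 26.3%, and 1041 lower, 28.9% and 22.1%. A total of 965 genes were higher in all 3 pairs and 746 were lower. Hypoxia genes were called higher in 18 of 28 and 24 of 28 cases in the activin and Wi control pairs, whereas tuberal hypothalamus genes were called higher in 15 of 26 and 19 of 25, where the tissues were eye and cortex. SAG RAX-negative cells, set against the same diencephalon/hypothalamus array, gave 13.5% higher and 9.99% lower.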

How the data were processed

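RNA of 8 groups was hybridised to Agilent 1-colour mouse arrays, 1 array a group, and the pair described uses 2 of them. The deposited scanner files hold the processed intensity of each spot, background-subtracted by the scanner software, which is Feature Extraction 10.7.3.1 per the file headers and Feature Extraction 9.1 with limma per the submitters' processing notes. A deposited value table gives the authors' log2 values of the same arrays; it served as an alternative.

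Control and outlier spots were left out, each array was divided by the 75th percentile of its intensities, repeat spots were averaged in log2, and a gene was read from its probe of highest mean over the 8 arrays. Where probes of a gene disagree, the text says so for genes it turns on. Differences carry the error of the Agilent error model. No test was made, because each side is 1 array of pooled RNA, and the number of arrays limits the precision. Probes were named through RefSeq accessions or symbols (GRCm38.p6 tables), and 23867 of the 55681 probes in the files matched no symbol. After outlier spots were left out 55419 probes remained. Calculations used Python 3.11.15, numpy 2.4.6, pandas 2.3.3 and, for normexp correction, limma 3.58.1 in R 4.3.3. The calling script was tested on simulated data.

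The members and the 48 gene lists were chosen with earlier results of these data known. Genes named are the 20 highest and 20 lowest differences with all probes on 1 side, up to 4 called genes at each end of a list and up to 3 of its best expressed genes not called, all genes of the hypothalamus, Hedgehog, thalamus and eye field lists, and the label checks; a few of these genes are not reported here, and list counts include them. Alternatives changed the scaling, the background correction, the filter, the probe summary, the size threshold and the source of values.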

Additional observations from a re-analysis of the deposited data

How the results depend on the processing

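With 1 array a side and no replicate, the limits are those of 2 pooled samples, and signal near background limits the low genes, since levels below the lowest level counted as well above background have no order. No paired analysis was possible because each group has 1 array. Scaling by the array median left both counts within 1.5 times of 5273 higher and 3608 lower, as did quantile normalisation, requiring both arrays above background and averaging probes. The count of higher genes was 2439 with the authors' deposited values, 8021 without a filter on low values and 1285 at a log2 difference of 2. The count of lower genes was 1857 after normexp correction and 1738 at a log2 difference of 2. Of the genes called higher or lower 2410 and 2929 were still called on the same side with the authors' values, and 4166 and 1816 after normexp correction, which adds an offset of 50 before scaling and so compresses low levels. No call turned to the opposite call under the scalings and corrections, and 6 did when probes were averaged. Of 465 called genes from the lists and the largest differences, 385 were still called on the same side after normexp correction, and the difference of 25 changed sign. With the authors' values these counts were 402 and 1. Of 147 called genes given with values, 70 moved by over 1.5 times after normexp correction and 44 in the authors' values, all toward 0, and 6 and 5 were then under the call. The Gas1 difference was 0.27 as a mean over its probes. The sex marker list, of 6 genes, had a median of 0.10 where both arrays had to be above background. Over the region lists r was 0.774 with diencephalon/hypothalamus, 0.415 with cortex and 0.410 with eye. The median absolute difference, in the order diencephalon/hypothalamus, cortex, eye, was 1.48, 2.33 and 2.07 over the region lists, 0.546, 0.591 and 0.479 over genes above background on all 8 arrays and 0.436, 0.486 and 0.438 in the authors' values. After normexp correction it was 0.707, 0.729 and 0.582 over all genes.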

Other observations

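Genes of axon guidance were split, with 6 called higher and 10 lower of 25. Robo3, a receptor of crossing axons, was at -3.22 in SAG RAX-positive cells and 1.67 in diencephalon/hypothalamus, 29.6-fold lower, and Sema3c was 6.97-fold lower. Efna5, an ephrin, was at 4.62 in the cells and 3.20 in the tissue, 2.66-fold higher, and Slit3 was 3.18-fold higher. Matrix genes showed a similar division, with 4 called higher and 7 lower of 21. Lama5 and Lama1, laminin chains made by epithelia, were 2.53-fold and 2.43-fold higher, while Lama4 and Lama2, chains of vessels and mesenchyme, were at least 79.7-fold and 46.2-fold lower. In the list for the optic stalk and ventral optic cup 3 were called higher and 3 lower of 12, with Vax2, a homeobox gene of the ventral eye, at 1.75 in the cells and 0.27 in the tissue, 2.80-fold higher.

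Of 18 genes of glial precursors and tanycytes 2 were called higher and 9 lower, with Rax, the gene of the sorting gate, among the 2. Pdgfra, the receptor of oligodendrocyte precursors and mesenchyme, was 20.9-fold lower, and Gjb6, a gap junction gene of astrocytes and surface ectoderm, was at least 110-fold lower. Of 12 choroid plexus genes 7 were called lower and none higher, and Folr1 was 5.25-fold lower. Of 20 genes of lens and surface ectoderm 3 were called higher and 11 lower, with Krt5, a basal keratin, at -4.61 in SAG RAX-positive cells and 1.94 in diencephalon/hypothalamus, and its second probe at a difference of -2.83. Among 16 genes of mesoderm and endoderm Afp, the liver and yolk sac gene, was at least 17.8-fold lower.

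Olfactory, vomeronasal and taste receptor genes, which the forebrain is not known for, were read on these arrays too. Of 1402 such genes 24.3% were well above background in SAG RAX-positive cells and 20.3% in diencephalon/hypothalamus, within a range of 12.1 to 44.4% over the 8 arrays. Of the 380 detected in the pair 175 were called higher and 16 lower. The names of these genes come from the array design, and the probe specificity was not tested.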
